A study of Homo sapiens with 8 samples.

Results

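BMP4, its receptors and direct SMAD target genes, and the genes of activin A and of one of its antagonists were followed in total and newly synthesized RNA after depletion of CGGBP1. They are 10 of the 18388 genes measured: BMP4, BMPR1A, BMPR2, ID1, ID2, ID3, SMAD6, SMAD7, INHBA and FSTL3. The group was chosen from results of this same comparison, in which BMP4 and FSTL3 stood out, and was filled up by pathway membership. Values of these genes between siControl and siCGGBP1 are therefore a description, with no test. All 10 passed the read filter (100 reads or more in 3 or more of the 6 compared libraries), as did 10138 genes in all. Only FSTL3 is an activin antagonist, since INHBA codes for a subunit of activin A itself.

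U-2OS Tet-ON cells, a human osteosarcoma line, were transfected with control siRNA (siControl) or a pool of siRNAs against CGGBP1 (siCGGBP1), both at 50 nM and for 72 h. Cells then received 75 µM 4-thiouridine (4sU) for 60 min before SLAM-Seq, in which 4sU built into new RNA is read as T-to-C conversions. There were 3 libraries per group, and 1 siControl library each with 0 and with 200 µM 4sU. All titles also carry the word DMSO, with no dose. The study's methods use N for biological replicates, and its figure legends give N = 3 for this comparison. The labels do not say whether these are separate cultures, so p-values measure the spread between these samples, part of which may be technical.

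Bone morphogenetic proteins such as BMP4 bind type I receptors (BMPR1A) and type II receptors (BMPR2). These phosphorylate SMAD1 and SMAD5, which enter the nucleus with SMAD4 and switch on the ID genes and the inhibitory SMADs, SMAD6 and SMAD7. Activin A, a dimer of INHBA subunits, signals through SMAD2 and SMAD3 and is bound and neutralized by follistatins such as FSTL3. In bone-forming cells BMPs drive osteoblast differentiation, while ID proteins hold back differentiation by blocking basic helix-loop-helix factors.

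CGGBP1 binds CGG trinucleotide repeats, so promoters of the 10 genes were searched for this unit. The search covered the 250 bases before each start site in RefSeq (GRCh38.p14). All 10 genes were matched, with 14 start sites, numbered along the gene where there are several. The hexamer CGGCGG, read on both strands (CCGCCG on the other), is present in 24.5% of 35116 promoters. It was found once in ID2, at 2 places each in ID3 and in start 3 of BMP4, and at 8 overlapping places in BMPR2. Only BMPR2 held 3 units in a row (CGGCGGCGG or CCGCCGCCG), which 4.37% of promoters do. The palindrome GGCGCC, a GC-rich element that BMP SMADs can bind, is in 16.4% of promoters and was found in BMPR2, FSTL3 and start 1 of BMP4. In BMPR2 it overlaps a CGG tract. The palindrome GTCTAGAC, a SMAD-binding element, is in 0.182% of promoters and was found once, in SMAD6. INHBA, ID1, BMPR1A and SMAD7 held none of these letters in this window. The sequences below show the genes with a match, other than ID2, and INHBA without one, from 5′ to 3′, with the motifs named above, on either strand, in capitals. Bases in an annotated exon of the same gene were left out.
BMP4, start 3 (chr14:53953456-53953645, minus strand): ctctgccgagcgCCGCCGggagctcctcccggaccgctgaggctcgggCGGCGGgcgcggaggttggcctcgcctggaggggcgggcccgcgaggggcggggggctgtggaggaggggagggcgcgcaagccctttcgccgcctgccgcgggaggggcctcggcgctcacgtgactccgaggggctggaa
BMP4, start 1 (chr14:53955051-53955300, minus strand): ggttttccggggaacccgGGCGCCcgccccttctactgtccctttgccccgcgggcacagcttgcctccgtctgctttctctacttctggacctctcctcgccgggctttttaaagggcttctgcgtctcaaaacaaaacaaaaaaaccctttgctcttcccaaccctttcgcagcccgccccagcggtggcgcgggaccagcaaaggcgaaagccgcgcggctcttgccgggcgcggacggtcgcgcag
BMPR2 (chr2:202376077-202376326, plus strand): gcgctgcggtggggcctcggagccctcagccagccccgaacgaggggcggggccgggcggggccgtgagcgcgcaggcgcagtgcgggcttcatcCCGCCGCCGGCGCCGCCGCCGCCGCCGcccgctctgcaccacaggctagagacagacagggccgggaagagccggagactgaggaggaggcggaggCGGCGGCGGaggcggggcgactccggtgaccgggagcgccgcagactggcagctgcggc
ID3 (chr1:23559502-23559751, minus strand): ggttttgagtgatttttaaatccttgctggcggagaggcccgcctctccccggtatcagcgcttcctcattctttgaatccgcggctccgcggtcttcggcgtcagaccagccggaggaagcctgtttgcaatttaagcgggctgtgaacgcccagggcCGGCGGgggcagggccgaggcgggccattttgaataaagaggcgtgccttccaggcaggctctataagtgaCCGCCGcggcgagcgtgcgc
SMAD6 (chr15:66701986-66702235, plus strand): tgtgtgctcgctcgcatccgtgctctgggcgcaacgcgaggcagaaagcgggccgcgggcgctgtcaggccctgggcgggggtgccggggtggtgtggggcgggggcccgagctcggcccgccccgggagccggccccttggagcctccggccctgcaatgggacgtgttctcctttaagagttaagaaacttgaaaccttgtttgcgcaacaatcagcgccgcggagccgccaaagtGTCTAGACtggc
INHBA (chr7:41703091-41703340, minus strand): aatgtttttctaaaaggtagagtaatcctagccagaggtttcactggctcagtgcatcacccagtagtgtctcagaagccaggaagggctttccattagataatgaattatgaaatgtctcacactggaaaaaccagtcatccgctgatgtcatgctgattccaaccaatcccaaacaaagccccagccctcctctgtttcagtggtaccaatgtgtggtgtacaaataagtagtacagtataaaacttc
FSTL3 (chr19:676142-676391, plus strand): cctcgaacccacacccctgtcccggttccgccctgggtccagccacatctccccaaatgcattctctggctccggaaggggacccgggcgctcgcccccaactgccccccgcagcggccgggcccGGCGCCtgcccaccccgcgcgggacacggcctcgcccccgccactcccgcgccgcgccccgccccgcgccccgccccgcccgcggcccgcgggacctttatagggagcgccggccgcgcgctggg

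A match is a stretch of letters, and binding of CGGBP1 or of a SMAD at these places was not analysed here.

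Some values of the whole table frame those of the 10 genes. The 6 compared libraries held between 10127519 and 14221516 reads, and the libraries with 0 and 200 µM 4sU held 19011714 and 11341561. CGGBP1 (ENSG00000163320, chromosome 3, 88051944 to 88149885, minus strand) had 106, 94.1 and 73.9 CPM (reads scaled to a library total of 1000000) in siControl and 18.2, 10.0 and 31.0 in siCGGBP1. That was a log2 fold change of -2.22 (SE 0.39, edgeR quasi-likelihood test, adjusted p = 0.0137). Without replicate 1 of siCGGBP1 the adjusted p was 0.0851. Of 12 mesenchymal markers, 11 were listed and 10, among them VIM, SPARC, RUNX2 and COL1A1, stood at 10 CPM or more in all 6 libraries. The summed level of the 11 was 5515 to 5881 CPM in siControl and 7935 to 9307 in siCGGBP1. The 5 listed late bone matrix markers summed to 12.1 to 16.9 CPM in siControl and 0.422 to 5.11 in siCGGBP1, with SP7 under 1 CPM throughout; their part in the results below was not tested. Of the 6 leukocyte markers listed, 5 were under 1 CPM in all 6 libraries. Replicate 3 of both groups stood apart in new RNA. Its new-to-total ratio was 0 for 56.9% (siControl) and 58.5% (siCGGBP1) of tested genes, against 22.5% to 31.9% in the other 4 libraries.

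BMP4 (ENSG00000125378, chromosome 14 of GRCh38, 53949736 to 53958761, minus strand), the ligand, was lower in siCGGBP1 in both total and newly synthesized RNA. Its total RNA stood at 836, 921 and 869 CPM in the siControl libraries. In the siCGGBP1 libraries it stood at 158, 115 and 181 CPM. The groups were far apart, with a siControl mean of 875 ± 42.7 CPM and a siCGGBP1 mean of 151 ± 33.8 (SD, n = 3 each). The log2 fold change was -2.55 (SE 0.20), a level 5.86-fold lower. Leaving out any 1 library gave values between -2.69 and -2.39.

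INHBA (ENSG00000122641, chromosome 7, 41667168 to 41705834, minus strand), the subunit of activin A, was also lower. It had 187, 182 and 237 CPM in siControl and 105, 105 and 63.5 CPM in siCGGBP1. The groups did not overlap, and the lowest library was replicate 3 of siCGGBP1. The log2 fold change was -1.17 (SE 0.25), and -0.96 without that library. An antisense gene, INHBA-AS1, overlaps INHBA, and whether reads were counted by strand was not stated.

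A gene was called where the adjusted p over all 10138 tested genes was under 0.05 and the absolute log2 fold change was above 1. In total RNA 2 of the 10 genes, BMP4 and INHBA, were called lower, against 0.957% of all tested genes, and 0 were called higher, against 0.444%. This contrast chose the genes, so nothing is read from the count. With the replicate number as a block, only BMP4 was called lower, and the same held without replicate 3 in both groups and with each single library left out. The median log2 fold change of the 10 genes was -0.18, with 4 above 0 and 6 below, against a median of -0.00 over all tested genes.

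Neither receptor differed in total RNA beyond the spread between libraries. BMPR2 (ENSG00000204217, chromosome 2, 202376327 to 202567751, plus strand) had 56.9, 60.7 and 92.7 CPM in siControl and 85.4, 75.3 and 81.3 in siCGGBP1. These values overlapped, with a log2 fold change of 0.18 (SE 0.27). BMPR1A (ENSG00000107779, chromosome 10, 86756596 to 86932825, plus strand) had 18.8, 25.5 and 29.5 CPM in siControl and 18.1, 19.0 and 59.0 in siCGGBP1. Replicate 3 of siCGGBP1 alone was high, and the log2 fold change of 0.36 (SE 0.49) became -0.42 without it.

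The ID genes, which BMP SMADs switch on, did not move together. ID1 (ENSG00000125968, chromosome 20, 31605283 to 31606515, plus strand) was higher in siCGGBP1, with 332, 387 and 377 CPM in siControl and 433, 432 and 576 in siCGGBP1. Its groups did not overlap, and the log2 fold change was 0.37 (SE 0.18), or 0.23 without replicate 3 of siCGGBP1. ID3 (ENSG00000117318, chromosome 1, 23557926 to 23559501, minus strand) was lower, with 388, 472 and 459 CPM in siControl and 308, 294 and 387 in siCGGBP1. Here the groups barely parted, since the highest siCGGBP1 library reached 387 and the lowest siControl library 388. The log2 fold change was -0.44 (SE 0.18). ID2 (ENSG00000115738, chromosome 2, 8678845 to 8684461, plus strand) had 53.7, 40.2 and 50.9 CPM in siControl and 35.9, 28.7 and 56.3 in siCGGBP1. These overlapped, with a log2 fold change of -0.28 (SE 0.33). An antisense gene, ID2-AS1, overlaps its start.

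The inhibitory SMADs, which feed back on the receptors, were at lower levels of reads. SMAD6 (ENSG00000137834, chromosome 15, 66702236 to 66782849, plus strand) had 39.5, 44.6 and 45.5 CPM in siControl and 35.0, 20.4 and 38.8 in siCGGBP1. The groups did not overlap, and the log2 fold change was -0.48 (SE 0.34). SMAD7 (ENSG00000101665, chromosome 18, 48919853 to 48950965, minus strand) had 8.85, 9.18 and 16.5 CPM in siControl and 6.62, 9.03 and 17.9 in siCGGBP1. In both groups replicate 3 was the highest, and the log2 fold change was -0.07 (SE 0.67).

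FSTL3 (ENSG00000070404, chromosome 19, 676392 to 683392, plus strand), the activin antagonist, had 28.8, 29.7 and 25.0 CPM in siControl and 29.6, 42.2 and 12.7 in siCGGBP1. The siCGGBP1 libraries lay on both sides of siControl, and the log2 fold change in total RNA was 0.00 (SE 0.44). The highest and the lowest of the 6 libraries were both siCGGBP1.

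Over the 10 genes, siControl and siCGGBP1 did not overlap for 4 lower genes (BMP4, INHBA, ID3 and SMAD6) and 1 higher gene (ID1). Over all tested genes 11.7% were lower and 12.6% higher without overlap. In bulk RNA, fewer cells with a transcript and less transcript per cell cannot be told apart.

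**Figure D1:**
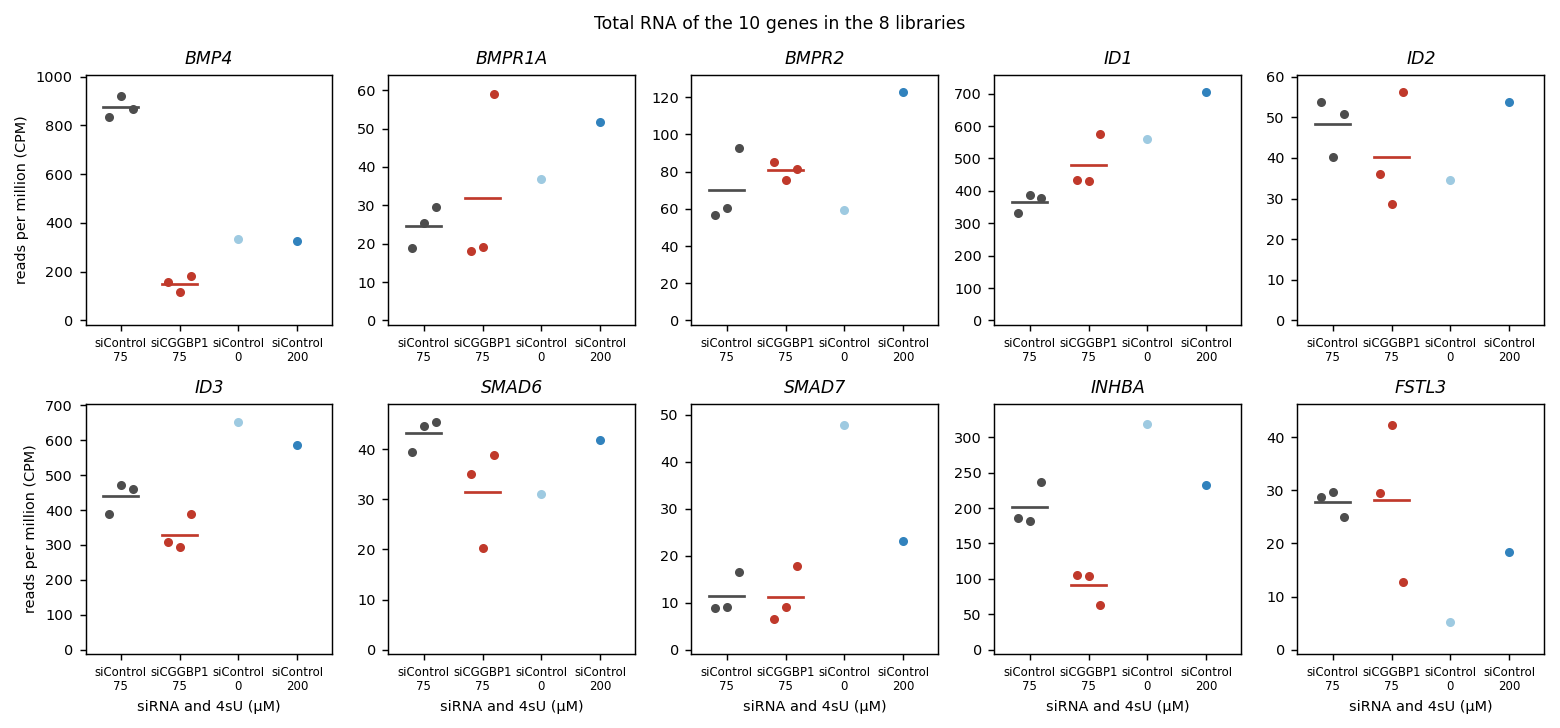
Total RNA of the 10 genes in scaled reads (CPM, vertical axis from 0, scaled per gene) in each library, by siRNA and 4sU concentration; horizontal lines are means of 3 libraries. BMP4 lay between 115 and 181 CPM in siCGGBP1 and between 836 and 921 in siControl at 75 µM, with the single siControl libraries at 335 and 327.

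The libraries of siControl cells given 0 or 200 µM 4sU were not part of the comparison and give a view of how far these genes vary among siControl cells. BMP4 had 335 CPM without 4sU and 327 with 200 µM, 2.61-fold and 2.68-fold below the mean of the siControl libraries at 75 µM. Its order was therefore siCGGBP1, then both single siControl libraries, then siControl at 75 µM. The single libraries differed by less than the spread among the 75 µM libraries of either group and lay above all 3 siCGGBP1 values. A level at least this far below the mean was seen for 6.58% of tested genes without 4sU and 7.76% with 200 µM, on the scale of CPM + 1. With 1 library per concentration there is no replicate check, and what sets these libraries apart was not tested.

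Other members shifted in both directions in these libraries. ID1 had 559 and 704 CPM with 0 and 200 µM, above all 3 siControl libraries at 75 µM, and ID3 had 653 and 586. SMAD7 had 47.8 CPM without 4sU, 4.16-fold above the siControl mean at 75 µM, and 23.2 with 200 µM. FSTL3 went down, to 5.21 CPM without 4sU and 18.4 with 200 µM. ID2 and SMAD6 had 34.7 and 31.1 CPM without 4sU, also below the lowest siControl library at 75 µM. With 200 µM they had 53.8 and 41.8. INHBA had 318 and 232 CPM, neither of them below the lowest siControl library. For every member but BMP4 the siControl libraries thus spanned a wider range in CPM than the difference between group means at 75 µM. That includes INHBA, whose siControl libraries ran from 182 to 318 CPM. Its means at 75 µM were 202 CPM in siControl and 91.0 in siCGGBP1. For BMP4 the siControl libraries ran from 327 to 921 CPM, and the means were 875 and 151.

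Newly synthesized RNA is the read count times the new-to-total ratio. For BMP4 it was 333, 457 and 382 new CPM in siControl and 77.4, 55.1 and 105 in siCGGBP1. The groups did not overlap, and the log2 fold change by edgeR was -2.32 (SE 0.20), near that of total RNA. In newly synthesized RNA 1 of the 10 genes, BMP4, was called lower, against 0.0197% of tested genes, and 0 were called higher, against 0.0296%. These genes were chosen on this contrast, so nothing is read from the count. DESeq2 and limma did not call BMP4 in new RNA, with log2 fold changes from -2.36 to -2.33. Their standard errors were larger, at 0.32 and 0.36 by limma with 1 and 10 added, and larger still by DESeq2. The SE of 0.20 in new RNA thus depends on the tool, while the size of the change varied little.

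INHBA had 57.9, 54.2 and 80.4 new CPM in siControl and 52.2, 39.2 and 21.4 in siCGGBP1. The highest siCGGBP1 library lay just under the lowest siControl library, and the log2 fold change was -0.80 (SE 0.50). ID1 had 179, 219 and 249 new CPM in siControl and 244, 279 and 469 in siCGGBP1, with a log2 fold change of 0.60 (SE 0.17). Without replicate 3 of siCGGBP1 that was 0.27. ID3 had 101, 129 and 159 new CPM against 103, 88.3 and 115, overlapping, with a log2 fold change of -0.37 (SE 0.30).

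The other members had few new reads, and their estimates were wide. New reads of SMAD6 numbered 109, 42 and 348 with siControl but 0, 10 and 115 with siCGGBP1, with a log2 fold change of -2.31 (SE 1.47). For BMPR2 they numbered 57, 18 and 1 with siControl but 168, 78 and 115 with siCGGBP1, which did not overlap in new CPM (log2 fold change 2.11, SE 1.80). BMPR1A had 27, 0 and 6 against 0, 32 and 140, and its log2 fold change had an SE of 2.71. SMAD7 had 57, 57 and 28 new reads against 67, 106 and 48, and ID2 had 194, 80 and 148 against 185, 102 and 199. Neither gene showed a difference beyond the spread between libraries.

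FSTL3 had 0 new reads in every siControl library and 66, 4 and 181 in siCGGBP1. The upper credible limits of its ratio in siControl were 4.28%, 1.66% and 1.94%, limits above 0, so no fold is given here. The fitted values listed at the end depend on the method. The 181 new reads of that replicate were all of its reads, since the ratio was estimated as 100%, with 89 reads holding at least 2 conversions (a reading of the column name, which no source explains). It was also the library with the lowest total RNA of FSTL3. Replicate 2 of siCGGBP1, with the highest total RNA, held 4 new reads. Over the 10 genes, new CPM did not overlap between the groups for BMP4 and INHBA (lower) and for BMPR2 and FSTL3 (higher). Over all tested genes this was 4.4% lower and 2.91% higher.

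**Figure D2:**
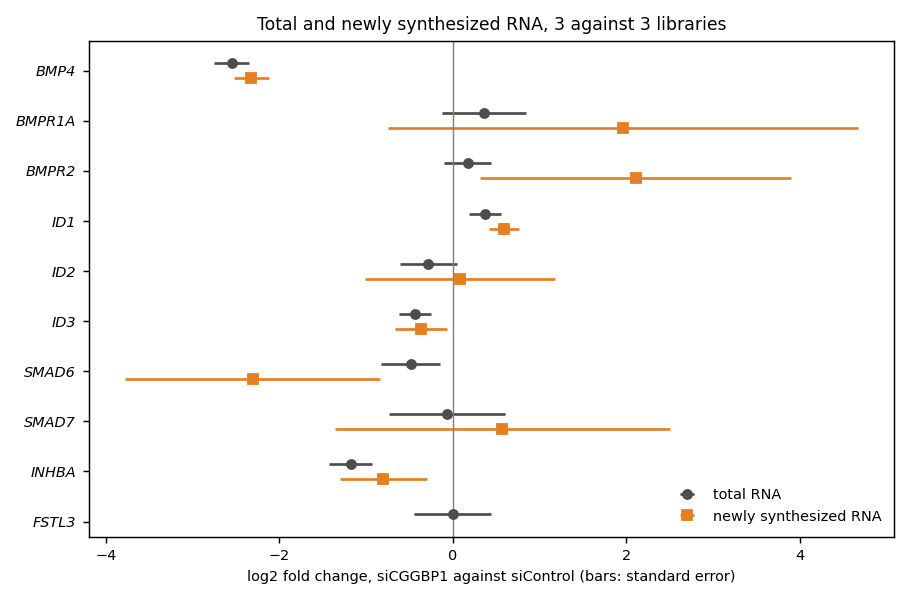
Log2 fold change (horizontal axis, bars are standard errors) of siCGGBP1 against siControl for total RNA (circles) and newly synthesized RNA (squares), 3 against 3 libraries. BMP4 was lower by -2.55 in total and -2.32 in new RNA, with an SE of 0.20 each by edgeR. DESeq2 and limma gave larger standard errors for BMP4 in new RNA, which are not drawn. New RNA of FSTL3 is not drawn because siControl held no new reads.

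The new-to-total ratio says what share of a transcript was made during the 60 min of labelling, and is high for short-lived mRNAs. BMP4 was 39.9%, 49.6% and 43.9% new in siControl and 48.8%, 48.0% and 57.9% new in siCGGBP1. The ranges overlapped, with means of 44.5 ± 4.91% and 51.6 ± 5.52% (SD, n = 3 each). The 90% credible limits were narrow, for example 38.7% to 41.1% in replicate 1 of siControl, so the libraries differed by more than these limits. The mean ratio of BMP4 was thus not lower where its level was lower.

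In siControl the ratios of ID1, BMP4, INHBA, ID3 and ID2 ranked among the highest of all tested genes. The mean ratio was 58.8 ± 6.28% for ID1, above 99.7% of tested genes, and 44.5% for BMP4, above 99.0%. INHBA followed with 31.6 ± 2.14% (above 96.7%) and ID3 with 29.4 ± 4.64% (above 96.1%). ID2 had 25.4 ± 9.66% (above 94.7%). Neighbours in this order from INHBA to ID2 did not differ beyond their spread, and ID1 and BMP4 were apart in all 3 libraries. Under steady state, these ratios correspond to apparent half-lives of 47.4 ± 7.81 min for ID1, 71.4 ± 10.6 min for BMP4, 110 ± 8.84 min for INHBA and 122 ± 21.3 min for ID3 (SD, n = 3). For ID2 the value was 159 ± 69.4 min. Conversions without 4sU, described below, reached 40.3% of the siControl mean in BMP4 and 99.9% in ID2, and their part in these ratios and half-lives was not tested.

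Receptor transcripts lay near the middle of the tested genes. BMPR1A was 14.0%, 0.1% and 1.65% new in siControl, a mean above that of 54.8% of tested genes. BMPR2 was 9.92%, 2.5% and 0.08% new, above 47.7%. SMAD6 (27.3%, 7.86% and 63.7%) and SMAD7 (63.7%, 51.1% and 14.1%) had means above 97.1% and 98.9% of tested genes but varied too much between siControl replicates for a half-life to be read. FSTL3 was estimated at 0% in all 3.

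In siCGGBP1 the mean ratio was higher for 9 of the 10 genes, SMAD6 being the exception, against 45.6% of all tested genes. The groups overlapped for 9 of them, and over all tested genes 3.01% were higher and 4.25% lower without overlap. Within libraries of the same number the ratio was higher in all 3 pairs for 5 genes (ID1, ID2, BMPR2, SMAD7 and FSTL3). It was lower in all 3 for SMAD6. Over all tested genes these shares were 5.63% and 8.13%. The members were chosen with this contrast known, so nothing is read from these counts. Replicate 3 of siCGGBP1 had no new RNA estimated for 58.5% of the tested genes, and those could not be higher in that pair. The differences within pairs were 2.43, 8.07 and 15.6 percentage points for ID1 and 9.48, 6.29 and 9.87 for BMPR2. For BMP4 they were 8.95, -1.63 and 14.0. ID1 was 53.8%, 56.6% and 65.8% new in siControl and 56.3%, 64.7% and 81.5% in siCGGBP1. INHBA was 31.1%, 29.8% and 33.9% new in siControl and 49.8%, 37.5% and 33.7% in siCGGBP1. ID3 was 26.0%, 27.4% and 34.7% new against 33.6%, 30.0% and 29.6%. FSTL3, with 22.0%, 0.71% and 100% in siCGGBP1, was the gene without overlap.

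The ratios rest on T-to-C conversions, which were set beside the library without 4sU. That library held 0.0638 conversions per 100 covered T over all genes. BMP4 held 0.537 there, 8.42-fold more and above 97.1% of tested genes, from 946 conversions in 6374 reads. With 75 µM 4sU it held 1.25, 1.61 and 1.14 in siControl and 1.70, 1.65 and 1.73 in siCGGBP1. The siCGGBP1 libraries were all higher, and the rate without 4sU was 40.3% of the siControl mean. With that rate subtracted, siCGGBP1 held 1.45-fold the conversions per covered T of siControl, against 1.27-fold before.

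Reads with at least 2 conversions, as the column name was read, had a much lower background. In BMP4 they were 3 of 6374 reads without 4sU, which is 0.0471 per 100 reads. With 75 µM 4sU they were 6.76, 8.11 and 4.86 per 100 reads in siControl and 7.29, 5.42 and 5.32 in siCGGBP1. These overlapped. On the scale of CPM, such reads of BMP4 averaged 57.8 ± 16.3 with siControl and 9.13 ± 2.70 with siCGGBP1 (SD, n = 3 per group), without overlap. Per 100 reads the groups overlapped, so this is no separate sign of lower new RNA. The lower value of BMP4 on the scale of CPM follows that of its total RNA. INHBA overlapped on that scale, with 9.54, 11.7 and 0.250 in siControl and 8.89, 6.39 and 0.0703 in siCGGBP1. Its replicate 3 held 3 such reads in siControl and 1 in siCGGBP1. SMAD6 was lower and SMAD7 higher without overlap, from at most 93 and 50 such reads in a library at 75 µM. In siCGGBP1, SMAD6 held 0, 3 and 0 such reads. Per 100 reads, ID2 was higher and SMAD6 lower without overlap, with 0 such reads of ID2 in replicate 3 of siControl. For these reads and for conversions per covered T no share over all tested genes is given. Nothing is therefore read from these cases without overlap.

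Among the other members, ID2, BMPR1A and SMAD6 also had high rates without 4sU, of 0.696, 0.540 and 0.397 conversions per 100 covered T. For ID2 that equals 99.9% of the siControl mean at 75 µM, and for BMPR1A it exceeds it. ID1 (0.0696), ID3 (0.0372), INHBA (0.0240) and BMPR2 (0.00578) were low without 4sU. ID1 held 1.90, 1.88 and 2.11 in siControl and 2.00, 2.78 and 2.69 in siCGGBP1, which overlapped. What gives rise to conversions without 4sU in single genes was not tested.

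The rest of the pathway was described with 6 lists holding 111 other genes, of which 90 were listed in the table and 57 were tested. In total RNA 0 of the 57 were called in either direction, against 0.444% and 0.957% of all tested genes. By edgeR 8 of the 57 had an unadjusted p under 0.05, as did 1661 of the 10138 tested genes, and DESeq2's Wald test called 1, SKI. In newly synthesized RNA 0 were called. Log2 fold changes were above 0 for 38 and below 0 for 19, with a median of 0.24 against -0.00 over all tested genes. Each of the values below is from total RNA, with adjusted p from edgeR's quasi-likelihood test.

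Of 30 other ligands 17 were listed and 4 passed the read filter. TGFB2, a TGF-beta ligand, had a log2 fold change of -0.32 (SE 0.22, adjusted p = 0.531). BMP5, the other tested BMP, had 45.1, 53.3 and 48.6 CPM in siControl and 56.4, 76.1 and 54.5 in siCGGBP1. Its log2 fold change was 0.33 (SE 0.27, adjusted p = 0.605). GDF11, an activin-like ligand, had a log2 fold change of -0.10.

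Of 18 receptors and co-receptors 11 were tested, with a median of 0.07. TGFBR2, the type II receptor of TGF-beta, had 47.1, 38.5 and 44.9 CPM in siControl and 61.9, 63.2 and 106 in siCGGBP1 (log2 fold change 0.80, SE 0.30, adjusted p = 0.196). TGFBR1, its type I partner, had 0.08. RGMB, a BMP co-receptor, had 11.5, 20.4 and 60.1 CPM in siCGGBP1 and 17.6, 12.2 and 10.6 in siControl, high in replicate 3 only (adjusted p = 0.345).

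All 17 SMADs and regulators of SMADs were tested, with a median of 0.18. SKI, a repressor of SMAD-driven transcription, had 35.7, 41.6 and 56.6 CPM in siControl and 19.6, 12.9 and 23.5 in siCGGBP1. The groups did not overlap, with a log2 fold change of -1.28 (SE 0.38, adjusted p = 0.108), and adjusted p-values from 0.0403 to 0.269 over 11 alternatives. PMEPA1, a TGF-beta-induced inhibitor of SMAD activation, had 171, 174 and 286 CPM in siControl and 395, 466 and 318 in siCGGBP1. Its log2 fold change was 0.87 (SE 0.24, adjusted p = 0.0940). Without replicate 3 in both groups it was called, at 1.32 with an adjusted p of 0.00216, and over 11 alternatives adjusted p-values ran up to 0.272. SMAD3, the activin and TGF-beta SMAD, had a log2 fold change of 0.20 (SE 0.21).

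Of 20 extracellular antagonists and binders 8 were tested, with a median of 0.28 and 7 above 0. BMP1, a protease that cleaves the BMP antagonist chordin, had 19.8, 20.4 and 22.1 CPM in siControl and 39.9, 47.4 and 28.4 in siCGGBP1 (log2 fold change 0.87, SE 0.36, adjusted p = 0.251). GREM1, a secreted BMP antagonist, had 0.67 (SE 0.41, adjusted p = 0.454). FSTL1, a follistatin-like protein, had 0.31 and CRIM1, a membrane protein that binds BMPs, had 0.02.

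Of 14 other BMP target genes 7 were tested, with a median of 0.51. ATOH8, a BMP-induced transcription factor, had 1.97, 0 and 0 CPM in siControl and 18.6, 9.45 and 35.5 in siCGGBP1. The groups did not overlap, but the adjusted p was 0.0868, with 0.000958 to 0.190 over 11 alternatives. It passed the read filter through the siCGGBP1 libraries. ID4, the remaining ID gene, had 34.4, 30.0 and 63.9 CPM in siControl and 71.7, 44.2 and 126 in siCGGBP1 (log2 fold change 0.89, SE 0.41, adjusted p = 0.301). HES1 had -0.22 (SE 0.23), and 598 and 498 CPM in the siControl libraries with 0 and 200 µM 4sU against 106 to 158 at 75 µM.

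Of 12 activin and TGF-beta target genes 10 were tested, with a median of 0.41. CDKN1A, the cell cycle inhibitor p21 and also a p53 target, had 187, 204 and 221 CPM in siControl and 372, 494 and 371 in siCGGBP1. Its log2 fold change was 0.99 (SE 0.19, adjusted p = 0.0222), just short of the fold needed for a call. Adjusted p-values ran from 3.26e-05 to 0.107 over 11 alternatives. CTGF, also known as CCN2, had -0.06 (SE 0.21), and LTBP2, which codes for a latent TGF-beta binding protein, 0.70 (SE 0.33, adjusted p = 0.321).

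The genes whose log2(CPM + 1) over the 6 libraries followed BMP4 most closely were MYH10 (Pearson r = 0.999), TTC4 (0.997), NPTN (0.996), CAV1 (0.995) and CANX (0.995). All of these points share the libraries and the group difference, so the fold changes of these genes follow from the choice and are given with no test. The log2 fold change was -1.11 for MYH10, a non-muscle myosin heavy chain, and -1.47 for NPTN. TTC4 averaged 34.3 ± 1.31 CPM with siControl and 17.3 ± 1.95 with siCGGBP1 (SD, n = 3 per group). It was -2.05 for CAV1, the main protein of caveolae, and -1.27 for CANX, a chaperone of the endoplasmic reticulum. Within the 10 members, r with BMP4 was 0.87 for ID3, 0.86 for INHBA, 0.76 for SMAD6, 0.53 for ID2 and -0.70 for ID1.

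FSTL3 was most closely followed by RNF123 (r = 0.995), TECR (0.991), DPM3 (0.988), NFKBIL1 (0.987) and AP3M2 (0.983). These share its pattern of a wide spread among siCGGBP1 libraries. The means of DPM3 were 82.9 ± 12.5 CPM with siControl and 80.2 ± 47.3 with siCGGBP1 (SD, n = 3 per group). Among the members, BMPR1A ran opposite to FSTL3 over the 6 libraries, with r = -0.92. Replicate 3 of siCGGBP1 held both the highest BMPR1A (59.0 CPM) and the lowest FSTL3 (12.7), and r without it was not computed.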

How the data were processed

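SLAM-Seq libraries of 3 siControl and 3 siCGGBP1 samples with 75 µM 4sU were compared, and 1 siControl library each at 0 and 200 µM 4sU was described. As deposited by the authors, estimated counts (reads, conversions from T to C, covered T, and reads holding 2 or more conversions, a meaning read from the column name that no source states) came from GRAND-SLAM. Ribosomal reads had been removed with Bowtie2 2.3.0, and 3′ end reads mapped with STAR 2.5.3a to Ensembl 90 (GRCh38). The new-to-total ratio was deposited by the authors as a fraction, with 90% credible limits. No removal of PCR duplicates was stated, so limits cover counting error only. The 30 columns of model parameters and double hits were not used.

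Read counts were rounded, and new RNA was the count times the maximum a posteriori ratio. The 10138 of 18388 genes reaching 100 reads in 3 or more of 6 libraries were fitted with edgeR 4.0.16 in R 4.3.3 (quasi-likelihood, TMM factors of total reads from 0.969 to 1.02, Benjamini-Hochberg over all tested genes). The fits were tested on simulated data. CPM is the read count scaled to a library total of 1000000, and 1 was added before log2 for correlations. The biological coefficient of variation was 0.399 for total and 1.78 for new RNA. SE is the log2 fold change over the square root of F.

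Deviations from the group mean correlated weakly between samples with the same replicate number (r = 0.122, 0.216 and 0.105 over 10138 genes). Between unlike numbers r ran from -0.121 to -0.0417. Deviations within a group of 3 are tied to each other and no label states a pairing, so these values do not settle it. The main fit used the group only, and a replicate block was run as an alternative. The other alternatives were DESeq2 1.42.0, its size factors in edgeR, no filter, no minimum fold, each library left out, and, for new RNA, TMM on new reads, the posterior mean ratio, conversion counts and limma 3.58.1 with 1 or 10 added. Leaving out replicate 3 in both groups was chosen after seeing the data.

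The members and lists were chosen with earlier results of these data known. Named genes were the members, CGGBP1, called pathway genes, in each list the 2 genes with the highest mean CPM and the 2 with the lowest unadjusted p, and the 5 genes most correlated with BMP4 and with FSTL3. TGFBI and INHBA-AS1, ID2-AS1 and the marker genes are named outside that rule, TGFBI after its values were seen.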

Additional observations from a re-analysis of the deposited data

Results flagged for a closer look

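The siControl library with 200 µM 4sU took no part in the comparisons, and 8 of the 10 genes held more conversions per 100 covered T there than in the library without 4sU. BMP4 held 1.12 against 0.537 without 4sU. BMPR2 held 0.363 against 0.00578. ID1 held 2.13 against 0.0696, ID2 2.66 against 0.696 and ID3 1.45 against 0.0372. SMAD6 held 1.94 against 0.397 and SMAD7 0.156 against 0.0644. INHBA held 0.988 against 0.0240. BMPR1A (0.345 against 0.540) and FSTL3 (0 against 0.0607) were not higher. For BMP4 and INHBA the rate with 200 µM lay below the siControl mean at 75 µM (1.33 and 1.03), and for ID2 and SMAD6 above it (0.697 and 0.971). Over all genes the library with 200 µM held 0.218 conversions per 100 covered T. The siControl libraries at 75 µM held 0.234, 0.245 and 0.183. With 200 µM the new-to-total ratio was 0 for 54.5% of tested genes. No share over all tested genes is given beside the count of 8, so nothing is read from it. Each concentration has 1 library, so there is no replicate check.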

How the results depend on the processing

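Counts of called genes depended on the tool and the libraries. In total RNA, 45 genes were called higher and 97 lower. DESeq2 called 166 and 205, no filter on reads gave 121 and 206, and leaving out replicate 3 in both groups gave 139 and 181. The pathway lists held 0 called genes of the 57 tested. DESeq2 called 1 lower (SKI), while no filter (ATOH8) and no minimum fold (CDKN1A) gave 1 higher each. Without replicate 3 in both groups 4 were higher (PMEPA1, ATOH8, TGFBI and CDKN1A). With single libraries left out, between 0 and 1 pathway gene was called higher in total RNA, ATOH8 without siControl replicate 1, PMEPA1 without siControl replicate 3 or CDKN1A without siCGGBP1 replicate 3. BMP4 was called lower in total RNA under all 11 alternatives. INHBA was lost under the replicate block, without replicate 3 in both groups and with each single library left out, so 1 member in place of 2 was called.

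In new RNA, 3 genes were called higher and 2 lower. DESeq2 called 11 and 19, conversion counts 11 and 7, the replicate block 1 and 1, and limma 0 and 0 with 1 or with 10 added. TMM on new reads gave 1 higher, the posterior mean ratio 4 lower, and leaving out replicate 3 in both groups 7 lower. Among the members, BMP4 was called lower in new RNA except by DESeq2 and limma, where 0 members were lower, and DESeq2 called 1 member, FSTL3, higher. The replicate block changed no call of a member or pathway gene but that of INHBA. With single libraries left out, between 15 and 48 genes were called higher and between 33 and 100 lower in total RNA, and between 1 and 3 higher and between 1 and 4 lower in new RNA. The counts of 48 and 100 came without siCGGBP1 replicate 3.

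The cause of these changes was not tested. At 75 µM, new reads of SMAD6, ID2, FSTL3, BMPR2, BMPR1A and SMAD7 numbered at most 348 in a library. The log2 fold change of FSTL3 in new RNA, 9.25 by edgeR, depends on the prior count and was 4.73 with the posterior mean ratio, 4.77 with conversion counts, and 5.26 and 2.52 by limma with 1 and 10 added. The number of members with a higher mean ratio in siCGGBP1 was 9, and 8 without replicate 3 in both groups.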
